A study of Mus musculus with 2 samples.

Results

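The respiratory chain genes studied here were the 103 genes, of 16388 present in both deposited matrices, that encode subunits of the 5 oxidative phosphorylation complexes or carry the same symbol prefixes. The rule used symbols alone and no measured value, but it was set with earlier results of these data known. It took protein-coding genes starting with mt-, genes starting with Ndufa, Ndufb, Ndufc, Ndufs, Ndufv, Uqcr or Atp5, Sdha to Sdhd, and Cox4 to Cox8 subunits. Of these, 13 are encoded by mitochondrial DNA and 90 by nuclear chromosomes. The nuclear genes comprised 74 subunits found in most tissues, 6 alternative subunits of complex IV and 10 assembly factors or related proteins that the prefixes admit (8 Ndufaf genes, Cox7a2l and Atp5s).

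Oxidative phosphorylation takes place in the inner mitochondrial membrane. Complex I (NADH dehydrogenase) and complex II (succinate dehydrogenase) pass electrons to ubiquinone, complex III (cytochrome bc1) passes them to cytochrome c, complex IV (cytochrome c oxidase) passes them to oxygen, and complex V (ATP synthase) uses the resulting proton gradient to make ATP. Complexes I, III, IV and V are assembled from proteins of both genomes, whereas all subunits of complex II are nuclear. Mitochondrial genes are transcribed inside the organelle as long polycistronic RNAs by a dedicated polymerase, while the nuclear genes are transcribed one by one, and the heart is among the tissues richest in these complexes.

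The study sequenced single cells of the second heart field, the progenitor mesoderm that lies behind the early heart tube and adds cells to both of its poles, from wild-type (WT) mouse embryos at embryonic stages E10.5 and E9.5. Cells were labelled Osr1+, after a transcription factor of the posterior second heart field, and the labels do not say how they were selected. Per the labels' protocols, tissue was dissociated with trypsin and encapsulated on the 10x Genomics Chromium Controller. Each stage was 1 sample, and a barcode suffix gave the anatomical position of a cell, so that there were 7 libraries: posterior, middle, outflow tract and anterior at E10.5, and posterior, middle and anterior at E9.5. All groups were wild type and untreated, and they differed only in labelled stage and position. The number of embryos behind each sample is likewise unstated in the labels.

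Sequences of the mitochondrial genes bear on how their counts can be read, since neighbouring genes share bases. The stretches below are from mm10 chromosome M (reference transcripts of GENCODE), on the plus strand, 5′ to 3′. In the overlap of mt-Atp8 with mt-Atp6 (chrM:7907-7989) the capitals mark the 43 bases that belong to both genes, and in the overlap of mt-Nd4l with mt-Nd4 (chrM:10147-10193) they mark the 7 shared bases. In the last 30 bases of mt-Co3 (chrM:9361-9390), mt-Cytb (chrM:15259-15288) and mt-Nd4 (chrM:11515-11544) the capital marks the lone T with which the gene ends, a stop codon that is completed only when the RNA is polyadenylated.
mt-Atp8/mt-Atp6 overlap: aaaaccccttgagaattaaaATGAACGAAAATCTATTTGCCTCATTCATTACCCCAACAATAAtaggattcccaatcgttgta
mt-Nd4l/mt-Nd4 overlap: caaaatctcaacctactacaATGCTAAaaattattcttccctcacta
mt-Co3 3′ end: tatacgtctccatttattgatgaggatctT
mt-Cytb 3′ end: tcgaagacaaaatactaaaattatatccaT
mt-Nd4 3′ end: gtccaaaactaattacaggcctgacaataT
The other overlaps were 1 base between mt-Atp6 and mt-Co3 and 14 bases between mt-Nd5 and mt-Nd6, which lie on opposite strands. Values of mt-Atp8, mt-Nd4l and mt-Nd6, the members of these pairs with the lower counts, are therefore uncertain, as the way shared reads were assigned is not given in the sources used here.

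Nuclear members are transcribed from separate promoters, shown because the summed level of the nuclear set varied little between libraries. Promoters of 300 bases, from 250 before to 50 after a gene's start, were matched by symbol for 72 of the 90 nuclear members (RefSeq, GRCm38.p6, the assembly also called mm10). The NRF1 core GCGCATGCG, on either strand, was present in 10 of the 72 (13.9%), against 1.95% of 27025 genes with a promoter in the table. The ETS core CCGGAAG, which GABP binds, was present in 18 (25%) against 9.93% of all genes, and the YY1 core AAGATGG in 11 (15.3%) against 7.28%. A match is a description of the letters and not a measured binding site. The 4 members that held both the NRF1 and the ETS core were Atp5k and Atp5l of complex V, Cox6a1 of complex IV and Uqcr11 of complex III, and the capitals mark both cores in either orientation.
Atp5k, chr5:108434350-108434649 (minus strand): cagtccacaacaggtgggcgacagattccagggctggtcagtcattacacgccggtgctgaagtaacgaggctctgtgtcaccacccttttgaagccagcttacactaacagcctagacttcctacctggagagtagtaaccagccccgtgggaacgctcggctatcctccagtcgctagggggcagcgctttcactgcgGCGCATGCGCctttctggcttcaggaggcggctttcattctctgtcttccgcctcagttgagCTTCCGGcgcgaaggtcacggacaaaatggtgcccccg
Atp5l, chr9:44920693-44920992 (minus strand): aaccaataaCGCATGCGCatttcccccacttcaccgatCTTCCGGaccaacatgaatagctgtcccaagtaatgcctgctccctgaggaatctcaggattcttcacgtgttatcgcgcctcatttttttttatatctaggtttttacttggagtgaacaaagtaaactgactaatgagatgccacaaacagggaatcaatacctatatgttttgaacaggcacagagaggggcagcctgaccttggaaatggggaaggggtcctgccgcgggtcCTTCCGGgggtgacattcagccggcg
Cox6a1, chr5:115348909-115349208 (minus strand): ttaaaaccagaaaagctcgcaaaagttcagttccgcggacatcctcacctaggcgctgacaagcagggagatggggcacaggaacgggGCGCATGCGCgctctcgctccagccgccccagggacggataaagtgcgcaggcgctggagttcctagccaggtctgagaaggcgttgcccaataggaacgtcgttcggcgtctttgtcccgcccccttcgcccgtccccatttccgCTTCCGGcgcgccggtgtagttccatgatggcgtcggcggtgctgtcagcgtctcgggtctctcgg
Uqcr11, chr10:80406772-80407071 (minus strand): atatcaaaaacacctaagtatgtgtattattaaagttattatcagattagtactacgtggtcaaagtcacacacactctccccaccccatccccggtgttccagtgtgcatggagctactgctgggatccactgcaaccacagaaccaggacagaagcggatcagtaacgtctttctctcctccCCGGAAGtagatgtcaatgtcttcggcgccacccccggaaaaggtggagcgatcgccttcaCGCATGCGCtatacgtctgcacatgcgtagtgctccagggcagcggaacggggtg

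The libraries held 1500 cells in all, 967 at E10.5 and 533 at E9.5, and every cell had at least 1 Osr1 count. Cell numbers ran from 31 (E10.5 outflow tract) to 560 (E10.5 posterior), and totals from 196584 UMIs (unique molecular identifiers, 1 per captured RNA molecule) in E10.5 outflow tract to 13647039 UMIs in E9.5 posterior. Median UMIs per cell were 5262 to 6084 in the E10.5 libraries and 23021 to 31251 in the E9.5 libraries, so that stage and depth cannot be told apart. Xist was counted 94 to 2855 times per E10.5 library and 0, 0 and 1 times in the E9.5 libraries. Cytosolic ribosomal proteins took 23.2% to 27.2% of UMIs. Of the 12 markers of second heart field mesoderm, all were detected in both posterior and both middle libraries, and 5 were at 0 in E10.5 anterior. Markers of other cell types differed with position: hepatoblast markers summed to 458 CPM (counts scaled to the library's total) in E10.5 posterior and 0 CPM in E10.5 anterior, where all 7 were at 0. In the same libraries epithelium markers summed to 446 and 19.7 CPM, cardiomyocyte markers to 242 and 15.8 CPM, and smooth muscle markers to 85.3 and 961 CPM. At E9.5 cardiomyocyte markers summed to 2266 CPM in posterior and 698 CPM in anterior. The part of these cell types in the differences below was not tested. Erythroid markers summed to 1012 to 5560 CPM at E10.5, against 34.4 to 151 CPM at E9.5. The E10.5 posterior and E10.5 middle libraries shared 1 cell barcode. Intervals given below cover counting error only, and in sums over a library fewer cells of a type and less RNA per cell cannot be told apart.

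The share of UMIs in the 13 mitochondrially encoded genes differed between positions at E10.5, whereas the share in the 90 nuclear members stayed close to 3% in every library. At E10.5 the mitochondrially encoded genes took 2.83% of UMIs in posterior, 1.34% in middle, 1.60% in outflow tract and 0.912% in anterior. At E9.5 they took 2.04% in posterior, 2.13% in middle and 2.09% in anterior. E10.5 posterior was the highest of the 7 libraries and E10.5 anterior the lowest, 3.11-fold apart, while the E9.5 libraries were close together. The nuclear members took 2.83% in posterior, 3.12% in middle, 2.89% in outflow tract and 3.09% in anterior at E10.5, and 3.25%, 3.08% and 3.01% in posterior, middle and anterior at E9.5, a range of 1.15-fold. The ratio of mitochondrially encoded to nuclear counts was therefore 1.00 in E10.5 posterior, against 0.429 in middle, 0.554 in outflow tract and 0.296 in anterior, and 0.629, 0.692 and 0.692 in the posterior, middle and anterior libraries of E9.5.

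**Figure D1:**
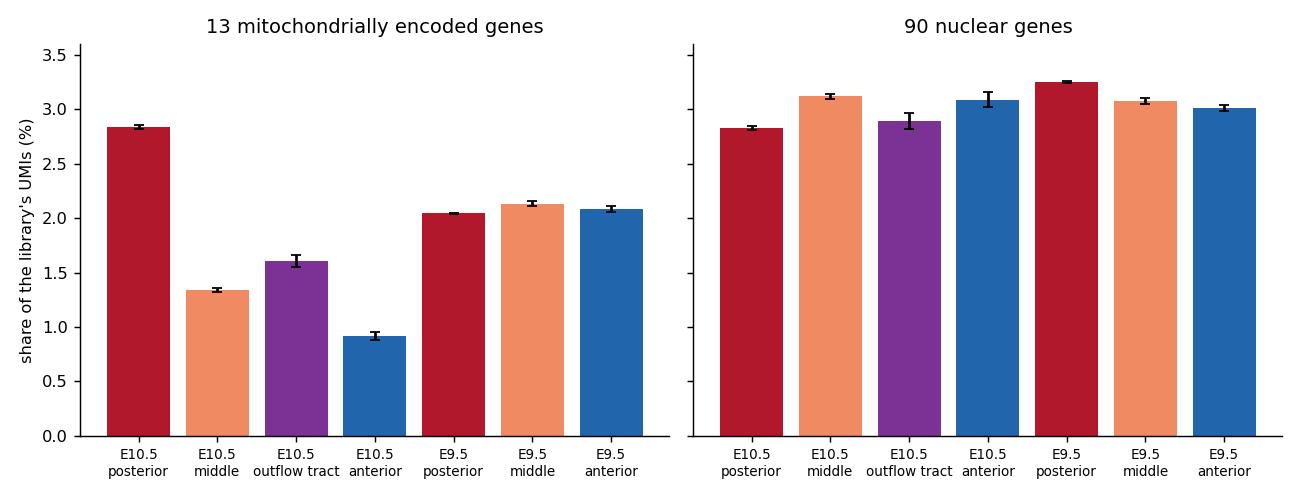
Share of each library's UMIs (%) in the 13 mitochondrially encoded genes (left) and the 90 nuclear members (right), 1 bar per library with exact 95% binomial intervals that cover counting error only. The left bars run between 0.912% in E10.5 anterior and 2.83% in E10.5 posterior, and the right bars between 2.83% and 3.25%.

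As summed counts, the mitochondrially encoded share of E10.5 posterior exceeded that of E10.5 anterior by 1.64 on the log2 scale (95% interval 1.58 to 1.70) and that of E10.5 middle by 1.08 (1.06 to 1.10). Outflow tract exceeded anterior by 0.81 (0.74 to 0.89). The corresponding differences of the nuclear sum were -0.13, -0.14 and -0.09, of the opposite sign and far smaller. At E9.5 the log2 difference of posterior over anterior was -0.03 (-0.05 to -0.01) for the mitochondrially encoded sum and 0.11 (0.09 to 0.12) for the nuclear sum. With 1 library per position and stage these differences have no replicate check.

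The difference at E10.5 was spread over most cells of a library. The median cell had 2.68% mitochondrially encoded UMIs in E10.5 posterior (quartiles 2.25% and 3.18%), 1.33% in middle (1.14% and 1.53%), 1.59% in outflow tract (1.36% and 1.81%) and 0.886% in anterior (0.665% and 1.12%). The lower quartile of the posterior cells thus lay above the upper quartile of each of the other E10.5 libraries. At E9.5 the medians were 2.04% in posterior (1.66% and 2.43%), 1.93% in middle (1.68% and 2.33%) and 2.12% in anterior (1.70% and 2.59%), with quartile ranges that overlapped. The highest cell reached 8.67% in E10.5 posterior and 13.7% in E9.5 posterior. Nuclear members had a median of 2.82% to 3.17% per cell in the 7 libraries. At E10.5 the median UMIs per cell were 5388 in posterior, 5262 in middle, 6084 in outflow tract and 5273 in anterior.

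**Figure D2:**
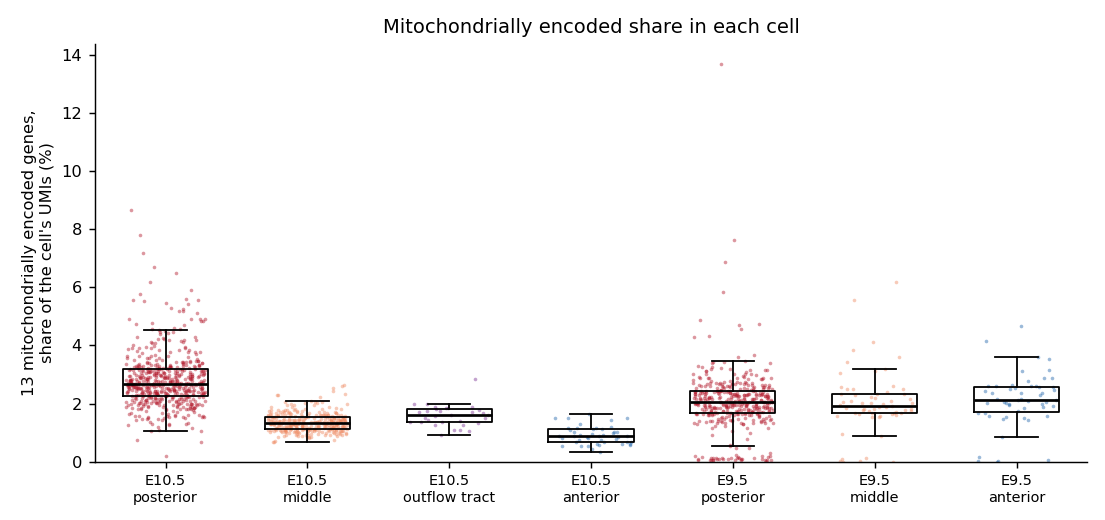
Share of each cell's UMIs (%) in the 13 mitochondrially encoded genes, 1 point per cell and 1 box per library (line, median; box, quartiles; whiskers, the furthest cells within 1.5 times the quartile range). The box of E10.5 posterior, with a median of 2.68%, lies above the boxes of the other E10.5 libraries, and the E9.5 boxes overlap; a band of E9.5 cells lies near 0.

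Positions were tested over both stages with edgeR's quasi-likelihood test on the UMIs summed per library, with stage as a term, across 9825 genes. The fit covered 6 libraries (posterior, middle and anterior at each stage), and 100 members passed its filter on low counts, all 13 mitochondrially encoded and 87 nuclear ones; Cox6a2, Cox7a1 and Cox7b2 were not tested. None of the 100 members passed an adjusted p of 0.05 in posterior against anterior, where 0.295% of all genes did (29 genes). The count was likewise 0 in posterior against middle, where 0.193% of all genes passed (19 genes), and in middle against anterior, where 0% did. At an unadjusted p under 0.05 there were 2 mitochondrially encoded and 5 nuclear members in posterior against anterior, 1 and 0 in posterior against middle, and 0 and 2 in middle against anterior. Over all 9825 genes there were 594, 378 and 345 in these contrasts. DESeq2 and limma also called 0 members in each contrast; over all genes DESeq2 called 54, 29 and 4 genes and limma 0, 0 and 0. As stage is a term, the p-values rest on how far position differences changed between the stage samples, with 2 residual degrees of freedom. A position difference seen at a single stage adds to this spread, so these tests cannot decide on it.

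The fitted folds of the 2 sets nevertheless lay apart. In posterior against anterior all 13 mitochondrially encoded genes were above 0, with a median log2 fold of 0.55, against 29 of 87 nuclear members above 0 with a median of -0.07 and a median of 0.02 over all genes tested. In posterior against middle the mitochondrially encoded median was 0.61 (13 of 13 above 0) and the nuclear median -0.10 (22 of 87), against 0.04 over all genes. In middle against anterior the medians were 0.17 (8 of 13) and 0.04 (51 of 87), against -0.01. Each of these medians averages 2 stages that differed: without E10.5 posterior the mitochondrially encoded median was 0.01 in posterior against anterior and -0.18 in posterior against middle, and without E10.5 anterior it was 0.10 and 0.54. Without E9.5 posterior the medians were 1.40 and 1.24, and without E9.5 anterior the median was 1.55 in posterior against anterior. Leaving out a library leaves its position with a single library and no replicate, so only medians are read from these settings.

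Within E10.5, 11 of the 13 mitochondrially encoded genes were at least 2-fold higher in posterior than in anterior, against 19.9% of all genes with at least 50 counts, and their median log2 fold was 1.80 (1.87 with mt-Nd6 at its lower bound). The median over all genes was 0.16 and over nuclear members -0.06. The 50 counts were summed over both libraries, which held 3448474 UMIs (posterior) and 253908 UMIs (anterior), so a gene could pass through posterior alone. In anterior mt-Nd6, mt-Atp8, mt-Nd3 and mt-Nd4l had 0, 5, 17 and 24 counts. Of all genes, 3.87% were at least 2-fold lower in posterior than in anterior, and 1.22% than in middle. In posterior against middle 10 of 13 were at least 2-fold higher, against 10.1% of all genes, with medians of 1.29 for the mitochondrially encoded genes, -0.10 for nuclear members and 0.15 for all genes. In outflow tract against anterior 2 of the 10 mitochondrially encoded genes with at least 50 counts were (mt-Co2 and mt-Co3), against 1.86% of all genes. Within E9.5 none of the 13 was at least 2-fold higher or lower in posterior than in anterior, against 7.08% of all genes higher and 4.48% lower; 3 of 13 were above 0 and the median was -0.09. These counts describe 1 library per position and have no test.

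The mitochondrially encoded subunits of complex IV, the catalytic core of cytochrome c oxidase, spanned the widest range across the 7 libraries. Together mt-Co1, mt-Co2 and mt-Co3 took 1.19% of UMIs in E10.5 posterior and 0.290% in E10.5 anterior, a 4.10-fold difference. mt-Co3 (chrM:8607-9390) was at 4318, 1151, 1663 and 744 CPM in posterior, middle, outflow tract and anterior at E10.5, and at 3840, 3864 and 3607 CPM in posterior, middle and anterior at E9.5. It was 5.80-fold higher in E10.5 posterior than in anterior, and the other E10.5 libraries lay below every E9.5 library. mt-Co1, which holds the haem a and a3 groups, was at 2858, 1214, 1496 and 867 CPM at E10.5 in the same order, and at 2272, 2200 and 2189 CPM at E9.5. mt-Co2, which receives electrons from cytochrome c, was at 4733, 2089, 2615 and 1292 CPM at E10.5 and at 1994, 2007 and 2061 CPM at E9.5. In all 3 genes posterior was the highest and anterior the lowest of the E10.5 libraries, and the E9.5 libraries were close together. In the fit over both stages the posterior minus anterior log2 folds were 1.28 ± 0.49 for mt-Co3 (SE, adjusted p = 0.712, edgeR), 0.80 ± 0.35 for mt-Co1 (adjusted p = 0.824) and 0.82 ± 0.39 for mt-Co2.

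Both mitochondrially encoded subunits of complex V showed the same order. mt-Atp6, the proton-conducting a subunit, was at 5832, 2386, 2935 and 1504 CPM in posterior, middle, outflow tract and anterior at E10.5, and at 4218, 4660 and 4475 CPM in posterior, middle and anterior at E9.5. It was 3.88-fold higher in E10.5 posterior than in anterior (log2 1.96, 95% interval 1.81 to 2.11). mt-Atp8, a small subunit of the stalk region whose gene overlaps that of mt-Atp6, was at 91.9, 27.4, 30.5 and 19.7 CPM at E10.5 and at 10.3, 6.25 and 17.7 CPM at E9.5. Its interval was wide (log2 fold of E10.5 posterior over anterior 2.22, 0.99 to 3.86), since the anterior library held few counts. The fitted posterior minus anterior folds were 0.87 ± 0.41 for mt-Atp6 and 0.31 ± 0.57 for mt-Atp8 (log2 ± SE).

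The 7 mitochondrially encoded subunits of complex I, which form its proton-pumping membrane arm, took 0.770% of UMIs in E10.5 posterior and 0.314% in E10.5 anterior. mt-Nd1, at the junction with the matrix arm, was at 3058, 2262, 2447 and 1548 CPM in posterior, middle, outflow tract and anterior at E10.5, and at 2844, 3120 and 2777 CPM in posterior, middle and anterior at E9.5. mt-Nd2 was at 1619, 587, 687 and 347 CPM at E10.5 and at 831, 828 and 881 CPM at E9.5. mt-Nd4 was at 1928, 984, 1150 and 855 CPM at E10.5 and at 1439, 1482 and 1568 CPM at E9.5. Each had its highest E10.5 value in posterior, but the folds over anterior differed: 4.67 for mt-Nd2 (log2 2.22, 1.92 to 2.54), 2.26 for mt-Nd4 and 1.98 for mt-Nd1 (log2 0.98, 0.84 to 1.13). mt-Nd5 was at 483, 195, 198 and 232 CPM at E10.5 and at 158, 158 and 174 CPM at E9.5, the only one of the 12 genes with counts in every library whose lowest E10.5 value was not in anterior. mt-Nd3 was at 276, 87.7, 81.4 and 67.0 CPM at E10.5 and at 309, 287 and 431 CPM at E9.5. mt-Nd4l was at 265, 121, 168 and 94.5 CPM at E10.5 and at 46.7, 44.4 and 50.2 CPM at E9.5. mt-Nd6, the one protein gene on the light strand, had 233 counts (67.6 CPM) in E10.5 posterior and 0 counts in E10.5 anterior, where 3 counts would be 11.8 CPM, which makes it at least 5.72-fold higher. It was at 10.8 CPM in E10.5 middle and 15.3 CPM in outflow tract, and at 20.4, 18.1 and 21.6 CPM in posterior, middle and anterior at E9.5.

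mt-Cytb, the only mitochondrially encoded subunit of complex III, differed least. It was at 2805, 2257, 2543 and 1552 CPM in posterior, middle, outflow tract and anterior at E10.5, and at 2441, 2630 and 2597 CPM in posterior, middle and anterior at E9.5. It was 1.81-fold higher in E10.5 posterior than in anterior (log2 0.85, 0.71 to 1.00), and 1.24-fold higher than in middle. The mitochondrially encoded genes thus did not differ by 1 common factor. As a share of all mitochondrially encoded counts, mt-Co3 was 15.2% in E10.5 posterior and 8.16% in E10.5 anterior, whereas mt-Cytb was 9.90% and 17.0% and mt-Nd1 10.8% and 17.0%. Composition also differed by stage: mt-Co2 was 14.2% to 16.7% of these counts in the E10.5 libraries and 9.42% to 9.88% in the E9.5 libraries, and mt-Nd3 was 0.972% and 0.734% in E10.5 posterior and anterior and 1.52% and 2.07% in E9.5 posterior and anterior.

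**Figure D3:**
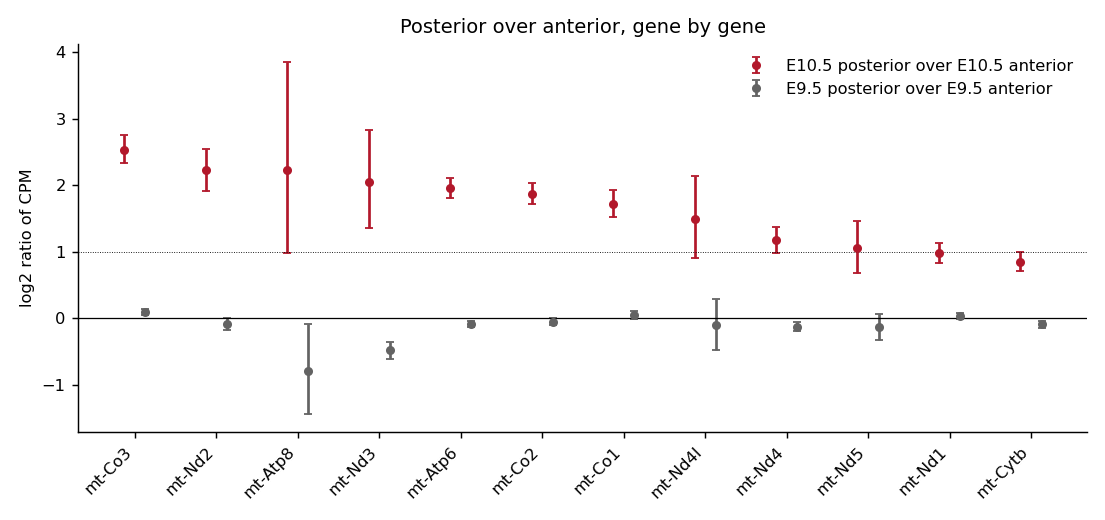
Log2 fold of posterior over anterior for 12 of the 13 mitochondrially encoded genes at E10.5 (red) and E9.5 (grey), with 95% intervals for counting error. The dotted line marks 2-fold, and mt-Nd6 is left out because it had 0 counts in E10.5 anterior. The E10.5 folds lie between 0.85 (mt-Cytb) and 2.54 (mt-Co3), and the E9.5 folds between -0.79 (mt-Atp8) and 0.09 (mt-Co3).

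The E10.5 difference was also present within clusters of cells that several libraries shared. Cells were clustered without the member genes, and clusters were called after fixed markers. An unnamed cluster led by Crym, Tagln, Twist1 and Prrx1 held cells of all 4 E10.5 libraries, and its mitochondrially encoded share was 2.74% in posterior (22 cells), 1.28% in middle (75 cells), 1.51% in outflow tract (22 cells) and 0.885% in anterior (42 cells). Its nuclear share was 2.68%, 3.05%, 2.91% and 3.10% in the same order, with median UMIs per cell between 5220 and 5930. Foregut or pharyngeal epithelium-like cells of E10.5 held 2.43% in posterior (40 cells), 1.14% in middle (14 cells) and 1.95% in outflow tract (5 cells). Endothelium-like cells held 3.31% in E10.5 posterior and 1.45% in E10.5 middle, with 5 cells each. In these clusters posterior was the highest library, as it was over all cells. Within E10.5 posterior the share differed little between its main clusters, at 2.80% and 2.91% in both unnamed mesenchymal clusters that held most cells (307 and 135 cells) and 3.03% in hepatoblast-like cells (50 cells).

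**Figure D4:**
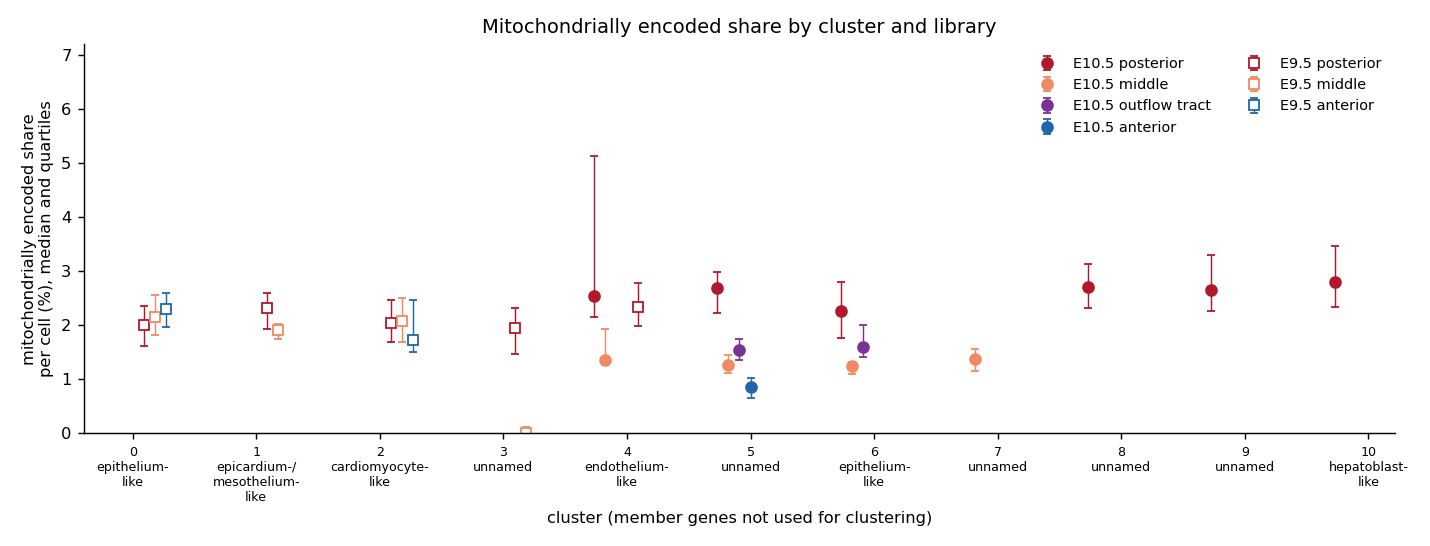
Mitochondrially encoded share per cell (%, median with quartiles) by cluster, for each library with at least 5 cells in that cluster (filled, E10.5; open, E9.5). In cluster 5, which all E10.5 libraries share, the posterior point lies above middle, outflow tract and anterior, as in clusters 4 and 6 among the libraries shown; the 7 E9.5 middle cells of cluster 3 lie near 0.

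Nuclear members of complex I, 36 subunits of the matrix arm and of the membrane arm's outer shell, took 0.830% to 0.924% of UMIs in the 7 libraries, a 1.11-fold range. Ndufv1, the flavin-binding subunit that accepts electrons from NADH, and Ndufa12, an accessory subunit of the matrix arm, had the highest fitted posterior minus anterior folds. Ndufa12 was at 361, 334, 244 and 181 CPM in posterior, middle, outflow tract and anterior at E10.5 and at 394, 377 and 289 CPM in posterior, middle and anterior at E9.5. Its log2 fold was 0.58 ± 0.24 (SE, adjusted p = 0.748, edgeR). Ndufv1 was at 111, 94.1, 45.8 and 47.3 CPM at E10.5 and at 114, 112 and 87.2 CPM at E9.5, with a log2 fold of 0.58 ± 0.27 (adjusted p = 0.854). Both were lowest in anterior or outflow tract at each stage, yet neither passed the test. The lowest folds were those of Ndufb8 (-0.54 ± 0.27, adjusted p = 0.855) and Ndufc1 (-0.35 ± 0.22), both accessory subunits of the membrane arm. Ndufb8 was at 456, 657, 534 and 894 CPM at E10.5 and at 510, 475 and 501 CPM at E9.5, so that only E10.5 anterior stood well above the others.

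Complex II, which also belongs to the citric acid cycle, has 4 subunits and took 0.0448% to 0.0697% of UMIs, the widest nuclear range at 1.56-fold. Sdha, its flavoprotein that oxidises succinate, was at 97.4, 63.7, 61.0 and 35.4 CPM in posterior, middle, outflow tract and anterior at E10.5 and at 129, 122 and 87.2 CPM in posterior, middle and anterior at E9.5. Its posterior minus anterior log2 fold was 0.78 ± 0.28 (adjusted p = 0.669, edgeR). The other subunits lay below 0, at -0.28 for Sdhd, -0.23 for Sdhb and -0.17 for Sdhc, and none passed. In complex III, 8 nuclear subunits took 0.270% to 0.331% of UMIs. Its highest folds were 0.21 for Uqcr11 and 0.19 for the core protein Uqcrc2, and its lowest were -0.32 for Uqcrb and -0.27 for the Rieske iron-sulphur protein Uqcrfs1.

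The 17 nuclear complex IV subunits, 11 common and 6 alternative forms, took 0.759% to 0.881% of UMIs. Cox8a varied least of all members, between 927 and 1009 CPM over the 7 libraries (1.09-fold). Ndufa4, first assigned to complex I and now placed in complex IV, was at 892, 1404, 1155 and 1631 CPM in posterior, middle, outflow tract and anterior at E10.5 and at 978, 956 and 924 CPM in posterior, middle and anterior at E9.5, with a fitted log2 fold of -0.47 ± 0.27. Like Ndufb8, it was highest in E10.5 anterior, where the mitochondrially encoded genes were lowest. Cox7c (0.05) and the supercomplex factor Cox7a2l (-0.01) had the highest folds among nuclear members of complex IV.

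Complex V, with 15 nuclear subunits, took 0.831% to 0.982% of UMIs. Atp5b (chr10:128083273-128090391), the catalytic beta subunit, was at 635, 383, 407 and 288 CPM in posterior, middle, outflow tract and anterior at E10.5 and at 1188, 931 and 822 CPM in posterior, middle and anterior at E9.5. Posterior was the highest at each stage, and the log2 fold over anterior was 0.72 ± 0.23 (adjusted p = 0.559, edgeR). Atp5a1, the alpha subunit that forms a hexamer with it, had a fold of 0.20 ± 0.21. The c subunit of the rotor ring is encoded by 3 genes with the same mature protein, and their fitted folds were -0.09 for Atp5g1, -0.38 for Atp5g2 and -0.33 for Atp5g3. Atp5g3 was at 424, 540, 422 and 744 CPM at E10.5 and at 454, 410 and 368 CPM at E9.5, with anterior highest at E10.5 and lowest at E9.5. The lowest fold in the complex V group was that of Atp5s, a coupling factor-like protein, at -0.44 ± 0.57. Within E10.5, 3 of 84 nuclear members with at least 50 counts were at least 2-fold higher in posterior than in anterior: Sdha (2.75-fold), Ndufv1 (2.35-fold) and Atp5b (2.21-fold), against 19.9% of all genes. None of 85 was in posterior against middle, against 10.1% of all genes, and none of 71 in outflow tract against anterior, against 1.86%. The 50 counts were again summed over both libraries of a comparison, and Sdha, Ndufv1 and Atp5b had 9, 12 and 73 counts in E10.5 anterior.

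**Figure D5:**
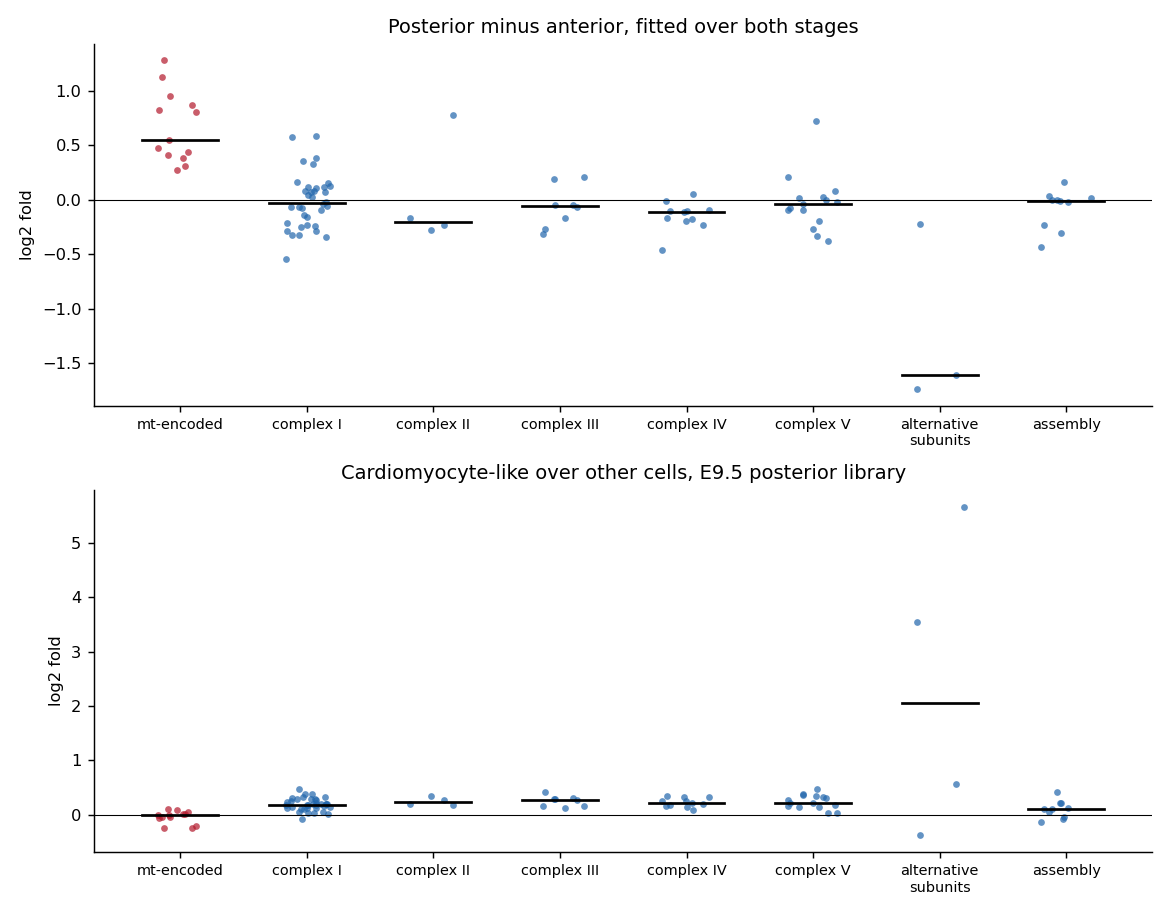
Log2 folds of single members (points) by complex, with medians (bars). The upper panel shows posterior minus anterior as fitted over both stages, in which mitochondrially encoded genes have a median of 0.55 and lie above 0, and the lower panel cardiomyocyte-like over other cells of the E9.5 posterior library, in which nuclear complexes lie above 0 and mitochondrially encoded genes around it.

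Alternative subunits of complex IV replace their common forms in particular tissues. Cox6a2 and Cox7a1, the heart and skeletal muscle forms of subunits 6a and 7a, were rare. Cox6a2 (chr7:128205435-128206387) had 110 counts in 27 of 418 E9.5 posterior cells, of which 1 cell held 35, and 14 counts in 1 of 560 E10.5 posterior cells. It had 0 counts in every anterior, middle and outflow tract library, which makes it at least 3.48-fold higher in posterior than in anterior and at least 4.30-fold higher than in middle at E9.5 (floor of 3 counts per library). Cox7a1 was at 2.03, 0.980, 0 and 3.94 CPM in posterior, middle, outflow tract and anterior at E10.5 and at 7.69, 2.50 and 5.40 CPM in posterior, middle and anterior at E9.5. The common forms Cox6a1 (302 to 473 CPM) and Cox7a2 (519 to 713 CPM) were detected in all libraries. Cox8b was in the E10.5 matrix only and is no member.

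Cox4i2, the form of subunit 4 known from lung and as an oxygen-responsive isoform, went the other way. It had 117 counts in 80 of 418 E9.5 posterior cells, 9 counts in 8 of 61 middle cells and 45 counts in 24 of 54 anterior cells, which are 8.57, 5.62 and 34.7 CPM. At E10.5 it was at 10.4, 6.86, 0 and 11.8 CPM in posterior, middle, outflow tract and anterior. It was 0.247-fold as high in E9.5 posterior as in E9.5 anterior, the 1 nuclear member of 88 with at least 50 counts that was at least 2-fold lower there, while Cox6a2 was the 1 at least 2-fold higher. Its fitted posterior minus anterior log2 fold was -1.61 ± 0.51 (adjusted p = 0.517, edgeR). In E9.5 cells a Cox4i2 UMI was found in 44 of 114 epithelium-like cells (38.6%), 34 of 124 cardiomyocyte-like cells (27.4%) and 18 of 191 cells of the unnamed cluster (9.42%), with median depths of 27625, 30522 and 30313 UMIs. These classes pool libraries: the cardiomyocyte-like one held 14 anterior, 21 middle and 89 posterior cells of E9.5, and 2, 0 and 70 with finer clustering. Epithelium markers summed to 709 CPM in E9.5 posterior and 1413 CPM in E9.5 anterior, and their part in the Cox4i2 difference was not tested. Ndufa4l2, a hypoxia-inducible relative of Ndufa4, was at 6.38, 10.3, 15.3 and 23.6 CPM in posterior, middle, outflow tract and anterior at E10.5 and at 2.78, 0.625 and 7.72 CPM in posterior, middle and anterior at E9.5, with a fitted fold of -1.74 ± 0.72 (adjusted p = 0.748). Cox6b2, a form of subunit 6b known from testis, was at 25.8 and 31.5 CPM in E10.5 posterior and anterior and at 11.7 and 11.6 CPM in E9.5 posterior and anterior.

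Cardiomyocyte-like cells of the E9.5 posterior library had more of nearly every nuclear member than the other cells of that library, by a small amount. Of 88 nuclear members with at least 50 counts, 83 were above 0 (94.3%), against 45.7% of all genes, with a median log2 difference of 0.20 against -0.04 over all genes. Only 2 nuclear members were at least 2-fold higher, against 3.68% of all genes: Cox6a2, at 33.6 CPM (103 counts) in the 89 cardiomyocyte-like cells and 0.662 CPM (7 counts) in the 329 others, and Cox7a1, at 26.4 CPM (81 counts) and 2.27 CPM (24 counts). Both reached 50 counts only through the cardiomyocyte-like cells, in which they were high. Single cells of this library held up to 35 Cox6a2 and 18 Cox7a1 counts. Atp5g3 was at 580 CPM in cardiomyocyte-like cells and 417 CPM in the others (log2 0.48), and Atp5b at 1417 and 1121 CPM (0.34). The 5 below 0 were Cox6b2 (-0.38), Ndufaf1, Ndufaf2, Cox7a2l and Ndufs6. The mitochondrially encoded genes did not share this shift, with 6 of 13 above 0 and a median of -0.01. With finer clustering (70 cells against 348), 82 of 88 nuclear members were above 0 with a median of 0.25, and the mitochondrially encoded median was 0.01. All cells came from 1 library and are not replicates, so there is no test.

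Among all E9.5 cells, a Cox6a2 UMI was found in 20 of 124 cardiomyocyte-like cells (16.1%, exact binomial interval 10.1% to 23.8%), 1 of 97 epicardium or mesothelium-like cells, 5 of 191 cells of the unnamed cluster (2.62%) and 0 of 114 epithelium-like cells (upper exact bound 3.18%, a limit on cells with a UMI and not on cells expressing the gene), at median depths of 30522, 31318, 30313 and 27625 UMIs. The 124 cardiomyocyte-like cells pooled 14 anterior, 21 middle and 89 posterior cells, which are not replicates, and Cox6a2 had 0 counts in the anterior and middle libraries. With finer clustering the class held 2 anterior, 0 middle and 70 posterior cells of E9.5, so its percentage depends on the clustering. After thinning each cell to 4500 UMIs the share was 4.84% in the 124 cardiomyocyte-like cells' class. Cox7a1 was found in 23 of 124 cardiomyocyte-like cells and 8 of 114 epithelium-like cells (7.02%). At E10.5 a single cell was cardiomyocyte-like, in the posterior library. It held all 14 Cox6a2 counts of that stage, and 5.52% mitochondrially encoded and 5.80% nuclear member UMIs, against 2.83% of each over the whole library.

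Between stages, mitochondrially encoded genes did not differ in 1 direction at the 3 shared positions. The log2 difference of their sum, E10.5 over E9.5, was 0.47 in posterior, -0.67 in middle and -1.19 in anterior, while that of the nuclear sum was -0.20, 0.02 and 0.04. No mitochondrially encoded gene was at least 2-fold apart in the same direction at all 3 positions. mt-Nd4l, mt-Nd5 and mt-Atp8 were higher at E10.5 at each position (mean log2 difference 1.62, 0.78 and 1.82), and mt-Nd3 was lower at each (mean -1.52). In anterior, though, the intervals of mt-Nd5 (0.42, -0.02 to 0.84) and mt-Atp8 (0.15, -1.60 to 1.58) included 0. mt-Co3, with a mean of -1.29, was 0.17 higher in posterior and -1.75 and -2.28 in middle and anterior. Of 89 nuclear members with at least 50 counts, 2 were at least 2-fold higher at E10.5 at all 3 positions, against 3.5% of all genes, and 0 were lower, against 3.14%. These were Ndufa4l2 (mean log2 2.28) and Cox6b2 (1.49), both alternative subunits with few counts. Ndufa4l2 had 22, 21 and 6 counts in posterior, middle and anterior at E10.5, and 38, 1 and 10 at E9.5. Cox6b2 had 89, 51 and 8 counts at E10.5, and 159, 11 and 15 at E9.5. In anterior the lower bounds of their log2 differences were -0.13 and -0.0004. The next highest were Ndufaf1 (0.74), Ndufaf7 (0.60) and Ndufb10 (0.56), and the lowest were Cox7a1 (-1.24), Atp5b (-1.23), Sdha (-0.88), Ndufs6 (-0.85) and Uqcrc1 (-0.74). Cox7a1 rested on 7, 2 and 1 counts in posterior, middle and anterior at E10.5, and 105, 4 and 7 at E9.5. Stage was 1 sample each and is tied to depth, so there is no test.

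Genes of the surrounding mitochondrial pathways had no member that passed the test in any of the 3 position contrasts. The posterior minus anterior median log2 fold was 0.10 for 19 citric acid cycle and pyruvate genes (11 above 0), 0.04 for 23 complex III and IV assembly factors (14 above 0), 0.11 for 3 complex V assembly factors (3 above 0) and -0.32 for 10 respiratory proteins outside the prefixes or shared with them (3 above 0). It was 0.00 for 10 genes of mitochondrial DNA replication and transcription (5 above 0), 0.22 for 12 genes of mitochondrial RNA stability and translation (8 above 0) and 0.32 for 8 nuclear regulators (5 above 0). It was -0.08 for 77 mitochondrial ribosomal proteins (30 above 0), -0.14 for 15 import factors and chaperones (6 above 0), -0.14 for 7 carriers and outer membrane channels (3 above 0), 0.01 for 8 antioxidant and stress genes (4 above 0), -0.09 for 15 glycolytic genes (6 above 0) and -0.13 for 89 cytosolic ribosomal proteins (22 above 0). All these medians were below that of the mitochondrially encoded genes. Within the lists of mitochondrial transcription and of nuclear regulators the genes differed in direction. Tfam, which packages mitochondrial DNA and starts its transcription, was at 97.1, 86.7 and 67.0 CPM in posterior, middle and anterior at E10.5 and at 98.2, 111 and 95.7 CPM at E9.5, with a fitted posterior minus anterior fold of 0.14 ± 0.25. Tefm, the mitochondrial transcription elongation factor, was at 12.8, 22.5 and 23.6 CPM at E10.5 and at 18.5 to 20.3 CPM at E9.5 (fold -0.32). Nrf1, a regulator of nuclear respiratory genes, was at 33.6, 15.7 and 11.8 CPM at E10.5 and at 41.2 and 42.4 CPM in posterior and anterior at E9.5 (fold 0.34 ± 0.41, adjusted p = 0.947, edgeR). Gabpb1, a subunit of the ETS-type regulator GABP, was at 35.4, 57.8 and 55.1 CPM at E10.5 and at 44.0, 45.6 and 44.8 CPM at E9.5 (fold -0.36). Tefm and Gabpb1 were lowest in posterior at E10.5, where Tfam and Nrf1 were highest, but some of these ranks were close. In outflow tract Gabpb1 was at 35.6 CPM, Nrf1 at 30.5 CPM, Tefm at 35.6 CPM and Tfam at 81.4 CPM. Anterior values rest on few counts, as 3 counts are 11.8 CPM there. These 4 genes were chosen after their values were seen. Between stages, Cs, citrate synthase, was the 1 of 19 citric acid cycle and pyruvate genes at least 2-fold lower at all 3 positions, against 3.14% of all genes. It was at 51.0, 30.4 and 27.6 CPM in posterior, middle and anterior at E10.5 and 103, 99.9 and 93.4 CPM at E9.5. Mpc1 of that list went the other way (mean log2 1.49) without passing. In the other lists Coa5, Polg, Fastkd5, Mycn, Slc2a3 and 4 cytosolic ribosomal genes were also lower by this measure. Ndufa4l2 and 9 cytosolic ribosomal genes were higher.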

How the data were processed

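The deposited values are UMI counts per gene and cell; the authors' files are 1 matrix per stage. Per the submitters' processing notes, Cell Ranger 3.0 and Seurat were used with mm10; the annotation version is not given in the sources used here, nor how reads shared with nuclear copies of mitochondrial DNA were counted. Barcode suffixes gave the position of each cell, per the labels.

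Counts were summed per library. CPM scale each count to its library's total over the 16388 genes present in both matrices. Totals, shares and UMIs per cell were counted over the same genes. The position tests used edgeR's quasi-likelihood fit (version 4.0.16, in R 4.3.3, after filterByExpr and TMM scaling, with terms for position and stage; Benjamini-Hochberg over 9825 genes), with DESeq2 1.42.0 and limma 3.58.1 (log2 of CPM + 10) as alternatives. Other settings were the normalization, the low-count filter, library totals, thinning to 4500 UMIs, cell classes, doublets and leaving out libraries. Shares have exact binomial and ratios exact conditional 95% intervals. Cells were clustered with scanpy 1.11.5 (Leiden, resolution 0.6; 0.3 and 1.0 as alternatives) without member, haemoglobin and Osr1 genes, and clusters were named from at least 3 markers. No cell was removed: Scrublet marked 108 of 1500 cells, but 57.4% to 97.8% in the 3 smallest libraries, so its marks were not used there. Median UMIs per cell were 5262 to 31251.

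On simulated data of 9527 genes for posterior minus anterior, the fit called 11 of 61 genes changed by a log2 of 1, 52 of 68 changed by 2 and 57 of 62 changed by 3, with 4 false calls. Recovery of a position difference present at a single stage, as in the mitochondrially encoded genes at E10.5, was not tested. Named are the 13 mitochondrially encoded genes, the 2 highest and 2 lowest fitted folds per complex, alternative subunits, members passing a test, and for stage the 5 highest and 5 lowest nuclear means. Members and lists were chosen with earlier results of these data known. Atp5o appears as Atp5o.1, as the files spell it.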

Additional observations from a re-analysis of the deposited data

Results flagged for a closer look

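The median log2 difference of the 13 mitochondrially encoded genes between posterior and anterior was 1.80 at E10.5 and -0.085 at E9.5. It stood out because the same comparison of positions gave medians of opposite sign at the 2 stages: the 12 genes with counts in both E10.5 libraries were all above 0, against 3 of 13 at E9.5. The E9.5 sign is not stable: the log2 difference of the summed share there was -0.03, and 0.070 without epithelium-, endothelium- and hepatoblast-like cells. The difference between the stages was not tested, since each stage has 1 library per position. Median UMIs per cell were 5388 and 5273 in E10.5 posterior and anterior, and 31251 and 23021 in E9.5 posterior and anterior.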

How the results depend on the processing

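Alternatives are given against 0 members passing the test in each position contrast and mitochondrially encoded medians of 0.55 (posterior minus anterior), 0.61 (posterior minus middle) and 0.17 (middle minus anterior). Without a filter on low counts, 5 and 4 members passed in the posterior contrasts (260 and 178 of 16193 genes). Without cells of other named classes, 7 and 11 passed (69 and 107 of 10180 genes) and the medians were 2.15 and 2.00; that setting leaves 0 E9.5 anterior cells and 7 E9.5 middle cells, whose mitochondrially encoded share was 0.143%, and the E10.5 over E9.5 means became 1.90 (mitochondrially encoded) and -0.20 (nuclear), with 9 members past 2-fold. Leaving out 1 library at a time, the members passing ran between 0 and 10 in both posterior contrasts and between 0 and 1 in middle minus anterior; the mitochondrially encoded medians ran between 0.012 and 1.55, -0.18 and 1.24, and -0.33 and 0.83, and the nuclear medians between -0.23 and 0.10, -0.23 and 0.033, and -0.034 and 0.16. Each fit without a library leaves that position with a single library and no replicate, so no member is taken as passing from these fits. The nuclear posterior minus anterior median was above 0 with limma (0.058) and without E10.5 posterior (0.10), and the posterior minus middle median with either of the E10.5 middle and posterior libraries left out (0.033 and 0.013); the cause was not tested. The E9.5 posterior over anterior share was -0.051 as a median over cells, -0.085 without cells under 0.5% mitochondrially encoded UMIs and 0.070 without epithelium-, endothelium- and hepatoblast-like cells. The E10.5 posterior over middle share was 1.01 as a median over cells, 1.04 thinned, 1.05 without other named classes and 1.06 without those 3 classes. Leaving out a position, the stage means ran between -0.93 and -0.0999 (mitochondrially encoded) and -0.091 and 0.027 (nuclear). Members past 2-fold then numbered between 2 and 5, and 1 with thinned cells. The share over all genes was not counted for these settings or without other named classes, so these numbers of members have no background to compare with. With coarse clusters (280 cardiomyocyte-like cells) the mitochondrially encoded class median was -0.16. Of 713 values of 42 named genes under 17 settings, 43 changed sign. The settings without cells under 0.5%, without those 3 classes and without Scrublet-marked cells in 4 libraries were chosen after seeing the data. Leaving out all Scrublet-marked cells was not run, as the caller marked 61.3%, 97.8% and 57.4% of the E10.5 outflow tract, E10.5 anterior and E9.5 anterior cells. No paired analysis was possible because each position has 1 library per stage, and stage is already a term of the fit. Counts of the outflow tract and anterior libraries come from 31 to 54 cells each.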

Other observations

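A small class of E9.5 cells held almost no mitochondrially encoded RNA. Of 533 E9.5 cells, 48 had under 0.5% of UMIs in the 13 genes, with a median of 0.106%, against 2.09% in the other 485 cells. The highest of the 48 cells was at 0.464% and the lowest of the others at 0.535%. They made up 8.85% of posterior, 9.84% of middle and 9.26% of anterior cells, and 37 of them lay in the unnamed cluster led by Hlx, Ifitm1 and Hoxb1. At E10.5 there were 3 such cells.

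The nuclear members were not depleted in these cells. They took 3.32% of UMIs in low cells and 3.21% in the others, and 54 of 88 nuclear members were higher in the low cells (61.4%, median log2 difference 0.05), against 36.6% of 10366 genes with at least 50 counts. Cytosolic ribosomal proteins took 25.7% and 23.5%. Median UMIs per cell were 12678 in the low cells and 30919 in the others. Some other transcripts were also lower in these cells, among genes chosen after their values were seen: Malat1, a nuclear non-coding RNA, was at 1061 CPM in low cells and 2754 CPM in the others, Kcnq1ot1 at 9.48 and 124 CPM, and Meg3 at 275 and 872 CPM. Hspa5 and Hsp90b1, chaperones of the endoplasmic reticulum, were at 136 and 128 CPM in low cells and at 560 and 524 CPM in the others. Actb and Gapdh were at 2935 and 2325 CPM in low cells and at 2785 and 1957 CPM in the others. The 48 cells were chosen by this share, so the comparison has no test.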
